A study of Mus musculus with 6 samples.

Results

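The genes described here encode 3 groups of ion channels that set how a neuron fires after it has been inhibited: the HCN channels (Hcn2, Hcn3 and Hcn4), the T-type calcium channels (Cacna1g, Cacna1h and Cacna1i) and the SK potassium channels (Kcnn1, Kcnn2 and Kcnn3). They were followed through every probe set whose platform annotation names only 1 of the 9 genes. This gave 11 of 36701 probe sets for 7 of the 9 genes, among 15964 annotated genes in all. Hcn4 and Kcnn3 had no such probe set and are not analysed here, and no probe set with several gene symbols named any of the 9. The older symbols of Hcn3 and Hcn4 in the RefSeq gene table overlap, each listing the other's name, so the probe set annotated as Hcn3 was assigned by its gene identifier.

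The mice were male C57BL/6 animals of 11 to 18 weeks with no genetic change named in the labels. All had wires implanted in the left eyelid and, after 3 days of recovery, 7 days of eyeblink training. The conditioned stimulus was a 352-ms tone and the unconditioned stimulus a 100-ms periorbital shock. Paired training started the shock 252 ms into the tone and both stopped together, and in unpaired training tone and shock were given apart in pseudorandom order. RNA came from the deep cerebellar nuclei around the anterior interpositus nucleus on the side of the wired eye, with 10 to 15 nuclei pooled per training group, and 3 array designs (A, B and C) that carry different probe sets were used. Whether designs A, B and C were given RNA of the same pool is not stated in the labels, so values on different designs may come from different extracts. Each probe set has 1 value for the paired group and 1 for the unpaired group, called the paired and unpaired pools below, and no difference below has a replicate, an error or a p-value.

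Neurons of the deep cerebellar nuclei are inhibited by Purkinje cells and fire a burst when that inhibition ends. HCN channels open on hyperpolarization and carry the inward current that pulls the membrane back up. T-type channels recover from inactivation during the hyperpolarization and then pass a calcium current at low voltage. SK channels are opened by calcium through bound calmodulin and produce the afterhyperpolarization that spaces spikes and limits bursts.

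Signals are given on the log2 scale as deposited, and ranks as the percentile among all non-control probe sets of the same array. Probe sets differ in how well they bind their target, so neither signals nor ranks order the abundance of different transcripts. For the log2 ratio, paired over unpaired, each paired array was first shifted to a median ratio of 0, and any signal below its design's 25th percentile was raised to that value. A probe set was kept when its mean signal lay at or above the median of its design, a log2 signal of 4.82 (A), 4.32 (B) or 3.02 (C). The filter kept 8 of the 11 probe sets, from 5 genes: Hcn2 with 3, Kcnn2 with 2, and Hcn3, Kcnn1 and Cacna1i with 1 each. The probe sets of Cacna1g and Cacna1h and 1 of the 3 for Kcnn2 lay under the filter.

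None of the 8 kept probe sets differed by 1.5-fold between the pools (0 of 8), while 125 of all 18351 kept probe sets did, a share of 0.681%. A count of 0 among 8 is near that background and is not a result about the channels. The kept members had a median log2 ratio of 0.06, with 6 higher and 2 lower in the paired pool, beside a median of 0.00 over all kept probe sets, of which 9175 were higher and 9175 lower. Hcn2 alone had log2 ratios beyond 0.13 in size, and its probe sets did not go the same way. The kept probe sets of Hcn3, Cacna1i, Kcnn1 and Kcnn2 ranged from -0.12 to 0.13. The SD of the log2 ratio over kept probe sets was 0.19 on designs A and C and 0.20 on B.

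**Figure D1:**
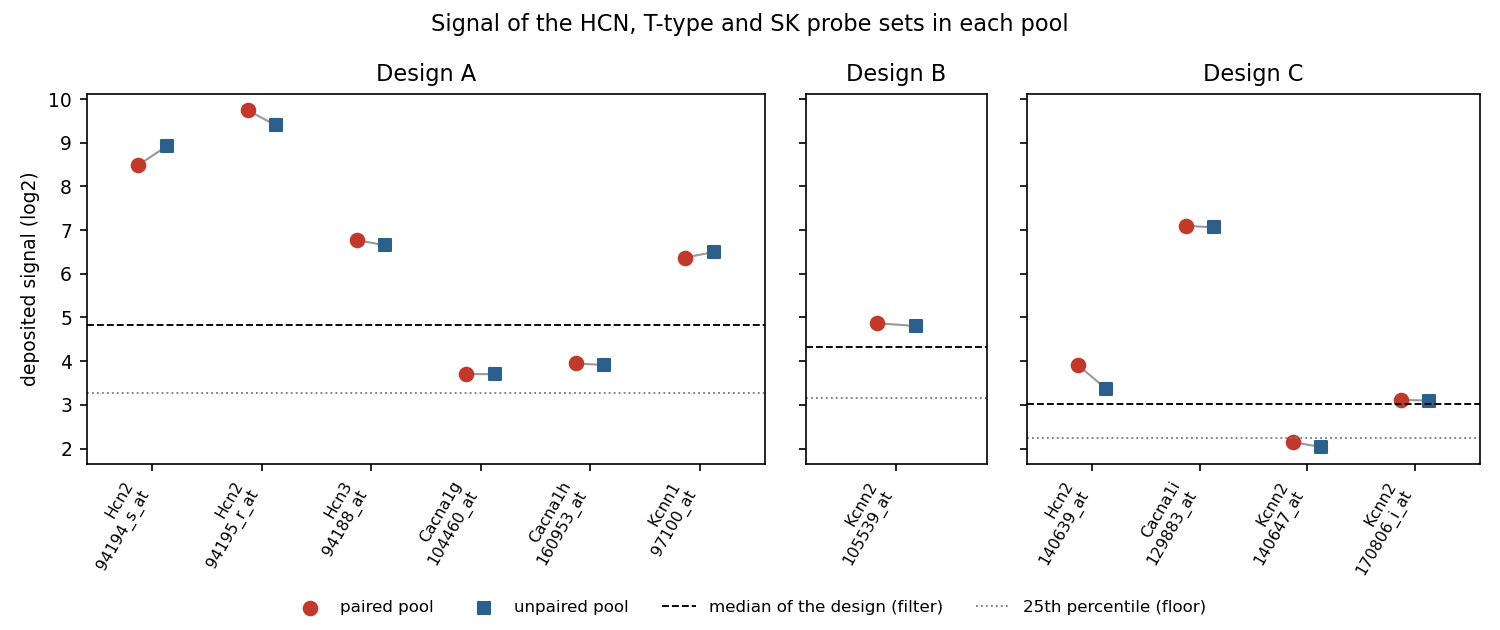
Deposited log2 signal (vertical axis) of the 11 probe sets of the channel genes on designs A, B and C, with a red circle for the paired pool and a blue square for the unpaired pool, 1 array each. The dashed line is the median of the design and the dotted line its 25th percentile. Hcn2 on design A is far above the median, at 9.74 in the paired pool and 9.40 in the unpaired pool on its brighter probe set, whereas Cacna1g, Cacna1h and 1 probe set of Kcnn2 lie below the median of their design.

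Hcn2, an HCN channel that responds strongly to cyclic AMP and is widely expressed in the brain, gave bright signals on design A. Probe set 94195_r_at had a log2 signal of 9.74 in the paired pool and 9.40 in the unpaired pool, at rank percentiles of 98.5 and 97.7. The paired pool was the higher one here, with a log2 ratio of 0.35, or 1.28-fold. Probe set 94194_s_at had 8.49 in the paired pool and 8.92 in the unpaired pool, at percentiles of 94.9 and 96.4. Here the paired pool was lower, with a log2 ratio of -0.42, or 1.34-fold. The third Hcn2 probe set, 140639_at on design C, was much dimmer within its design, with 3.91 in the paired pool and 3.37 in the unpaired pool. It ranked at percentiles of 65.6 and 57.0 and had a log2 ratio of 0.55, or 1.46-fold, just inside 1.5-fold.

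All of the Hcn2 probe sets lay toward the edges of the ratios on their design. Among kept probe sets of design C, 1.16% had a log2 ratio at least as far from 0 as that of 140639_at. On design A this share was 3.70% for 94194_s_at and 7.26% for 94195_r_at. Bright probe sets varied less than dim ones, so each was also set beside the probe sets of its own signal range, a bin of 5% of the design. In the top bin of design A, which holds both bright Hcn2 probe sets, the log2 ratios had an SD of 0.15. There 1.45% of 622 probe sets lay at least as far from 0 as 94194_s_at and 3.38% at least as far from 0 as 94195_r_at. The bin was itself centred below 0, with a median log2 ratio of -0.04. Under quantile scaling 94195_r_at lay farther from 0, at 0.40 against -0.37 for 94194_s_at, and loess scaling gave 0.40 against -0.38. Which of them lay farther out thus depended on the scaling. For 140639_at the share in its bin of 594 probe sets was 1.68%. These shares describe the arrays and are no p-values.

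**Figure D2:**
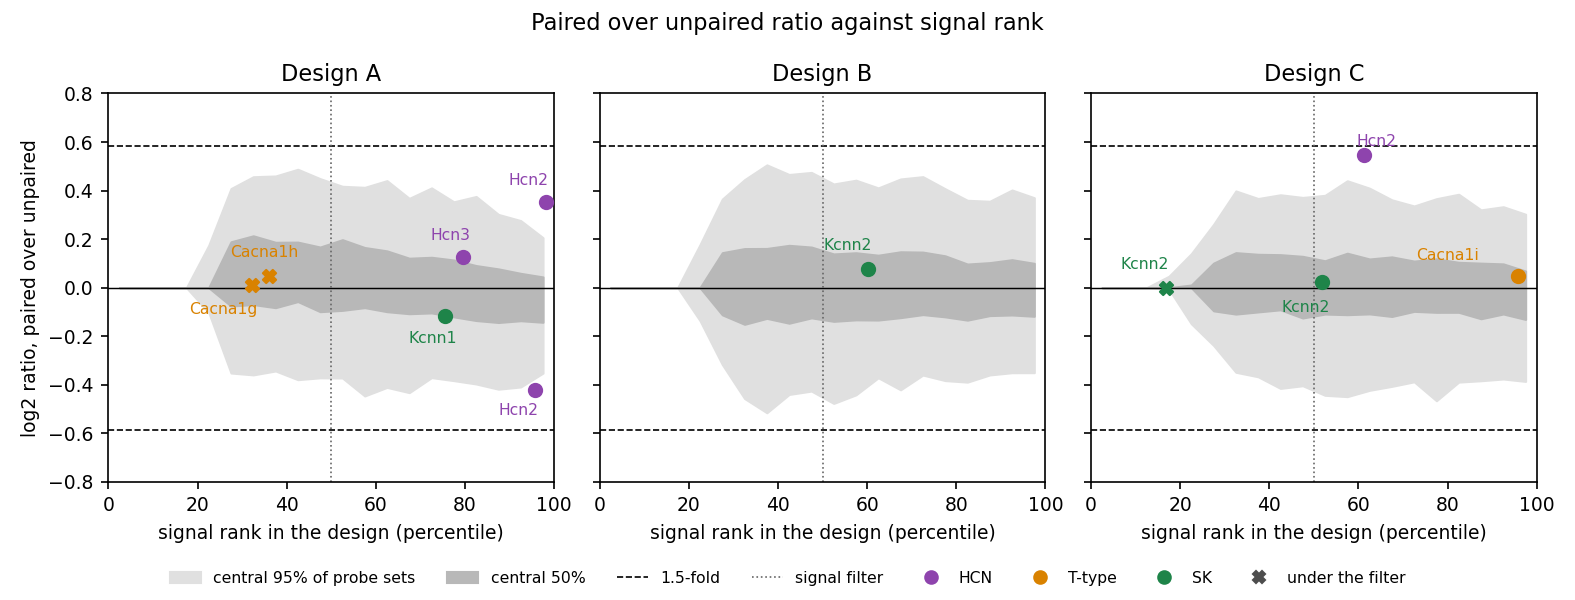
Log2 ratio, paired over unpaired (vertical axis), against signal rank in percent (horizontal axis) for the channel probe sets on each design, coloured by channel group, with crosses for those under the signal filter. Grey bands hold the central 95% and 50% of all probe sets in bins of 5% of signal rank, and dashed lines mark 1.5-fold. The Hcn2 points lie outside the outer band, at -0.42 and 0.35 on design A and 0.55 on design C, and the other channel genes lie near 0.

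The opposite directions on design A came from probe sets annotated to the same GenBank entry for Hcn2. Their log2 ratios lay 0.78 apart. On design A, 119 genes had a pair of kept probe sets that share an entry, and the median gap was 0.16, with 95% of pairs within 0.46. The gap of Hcn2 was the widest of these 119. Of all 872 pairs of kept probe sets of the same gene on design A, 0.688% lay at least as far apart, and of the 88 pairs whose members both ranked in or above the 90th percentile, 1.14% did, Hcn2 being that pair. Opposite directions in themselves were common, in 46 of the 119 pairs, or 38.7%. The comparison with pairs was chosen after the Hcn2 values were seen.

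The letters in these names mark how the probes were picked: in this array family "s" marks probes that may bind more than 1 transcript, "r" a set for which selection rules were relaxed, and "i" a set with fewer probes. Among the same-entry pairs of design A, other wide gaps also involved an "r" probe set. Every pair with an "r" probe set and a gap wider than that of Csnk1d had its higher log2 ratio there. These were Hcn2, Ly6e, Rps28, Itgb1, Cox6c, Penk, Hdgf and Gipc1. In Csnk1d and Igdcc3, with smaller gaps, the "r" probe set had the lower log2 ratio. The next widest gap after Hcn2, that of Tsc2, involved no "r" probe set. Whether relaxed selection bears on the Hcn2 gap was not tested. Of the Hcn2 probe sets only 140639_at carries no letter. The mean over all 3 was a log2 ratio of 0.16, over a range of -0.42 to 0.55. Design A alone gave a mean of -0.04, and design C alone, which is also the value without lettered probe sets, gave 0.55. The direction for Hcn2 thus depended on the probe set, and which of them reads the transcript level better was not tested.

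**Figure D3:**
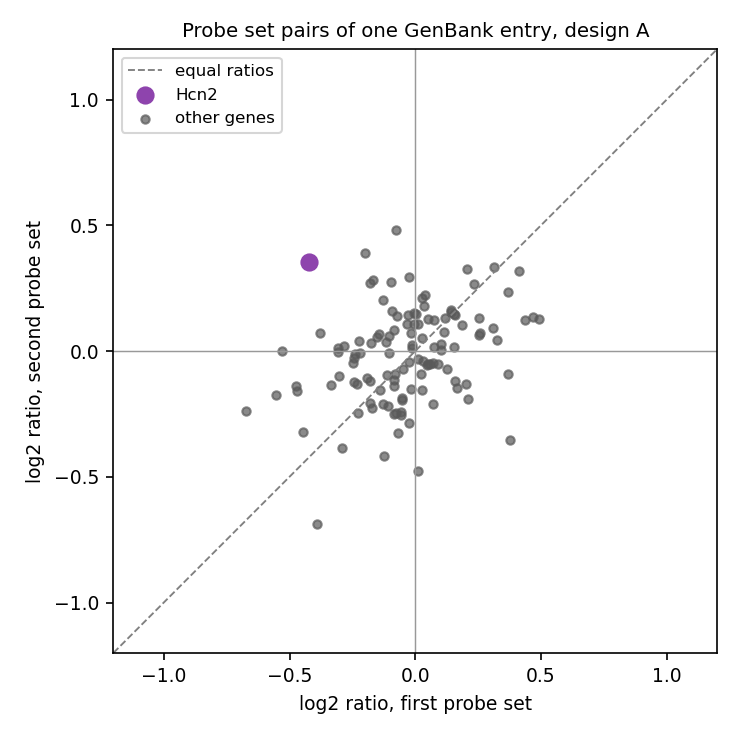
Log2 ratios, paired over unpaired, of the first (horizontal axis) and second (vertical axis) kept probe set that share a GenBank entry on design A, 1 point per gene for 119 genes, with Hcn2 in purple. The dashed line marks equal ratios. Hcn2 lies at -0.42 and 0.35, in the upper left, with the widest gap of all the points.

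Hcn3, an HCN channel that is little affected by cyclic AMP, was read by 94188_at on design A. Its log2 signal was 6.77 in the paired pool and 6.65 in the unpaired pool, at percentiles of 80.6 and 78.4. The log2 ratio of 0.13, or 1.09-fold, was below the SD of its design, and 46.0% of kept probe sets on the design lay at least as far from 0. Together the 4 kept HCN probe sets had a median log2 ratio of 0.24, with 3 higher and 1 lower in the paired pool. Of these 4, 3 belong to Hcn2, so the median mostly repeats that gene.

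Among the T-type channels, Cacna1i (Cav3.3), which activates and inactivates slowly for its group, gave a bright signal on design C. Probe set 129883_at had a log2 signal of 7.10 in the paired pool and 7.06 in the unpaired pool, at percentiles of 95.9 and 95.7. The pools were close, with a log2 ratio of 0.05, or 1.03-fold, and 76.4% of kept probe sets on design C lay at least as far from 0.

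Cacna1g (Cav3.1), the T-type channel usually named for burst firing in deep nuclear neurons, gave a signal under the median of design A on its only probe set. Probe set 104460_at had a log2 signal of 3.70 in both pools, at percentiles of 31.7 in the paired and 32.8 in the unpaired pool. The log2 ratio was 0.01. Cacna1h (Cav3.2) was similar on 160953_at, with 3.95 in the paired pool and 3.91 in the unpaired pool, at percentiles of 35.8 and 36.1. Its log2 ratio was 0.05. Both lay above the 25th percentile of design A, which was 3.28, but under the signal filter, and both ratios turned below 0 under quantile scaling, to -0.06 for Cacna1g and -0.02 for Cacna1h. A low signal on 1 probe set does not show that the transcript is absent.

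Among the SK channels, Kcnn2 (SK2), which is widely expressed in brain neurons, had 3 probe sets on 2 designs, and the 2 kept ones differed little between the pools. On design B, 105539_at had a log2 signal of 4.87 in the paired pool and 4.80 in the unpaired pool, at percentiles of 61.0 and 59.5, and a log2 ratio of 0.08. On design C, 170806_i_at had 3.11 in the paired pool and 3.10 in the unpaired pool, at percentiles of 52.0 and 51.6, with a log2 ratio of 0.02. The remaining probe set, 140647_at, had 2.15 in the paired pool and 2.03 in the unpaired pool, both below the 25th percentile of design C at 2.25, so no ratio was read from it. The kept Kcnn2 ratios lay 0.06 apart, against 0.97 for the 3 probe sets of Hcn2.

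Kcnn1 (SK1) was the only member other than Hcn2 with a kept probe set lower in the paired pool. Probe set 97100_at on design A had a log2 signal of 6.37 in the paired pool and 6.50 in the unpaired pool, at percentiles of 74.7 and 76.3. Its log2 ratio of -0.12 was within the SD of the design, and 50.5% of kept probe sets lay at least as far from 0. Over the 3 kept SK probe sets the median log2 ratio was 0.02.

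Genes that bind or modify these channels were read from lists written with earlier results of these data known. The list for HCN channels had 7 kept probe sets from 4 of 9 genes, with 3 higher and 4 lower in the paired pool and a median log2 ratio of -0.01. Pex5l, the brain protein TRIP8b that binds HCN channels and governs their surface level, had a bright probe set on design B at 8.79 in the paired pool and 8.74 in the unpaired pool, with a log2 ratio of 0.05, and a dimmer one at -0.03. Nedd4l, a ubiquitin ligase, had a log2 ratio of -0.31 on design B and 0.20 and -0.19 on design A, and Lrmp, which modulates HCN4 channels, had 0.22.

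For T-type channels, 9 probe sets from 6 of 8 genes were kept, with 5 higher and 4 lower in the paired pool and a median of 0.01. The ubiquitin ligase gene Wwp1 had a log2 ratio of 0.20 on 1 of its kept probe sets and 0.01 on the other, the ankyrin gene Ank2 had -0.20 and 0.05, and Usp5, whose product removes ubiquitin from Cav3.2, had 0.15 and -0.05. For SK channels, 9 probe sets from 7 of 11 genes were kept, with 4 higher and 5 lower and a median of 0.00. Kcnn4, the intermediate-conductance relative of the SK genes, had a log2 ratio of 0.25, with 4.96 in the paired pool and 4.72 in the unpaired pool. The scaffold gene Mpp2 had -0.24, the phosphatase subunit gene Ppp2r1a -0.15 and the calmodulin gene Calm2 0.00. No probe set on these 3 lists passed 1.5-fold.

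Other channel genes that shape firing of nuclear neurons stood mostly on the lower side in the paired pool. Of 22 kept probe sets from 10 of 13 genes, 17 were lower and 5 higher, with a median log2 ratio of -0.16 and none past 1.5-fold. By design the median was -0.03 on A, -0.12 on B and -0.21 on C. Cacna1a had the highest log2 ratio, 0.38 on design A. The sodium channel gene Scn1a had 8.22 in the paired pool and 8.74 in the unpaired pool on its brighter probe set, a log2 ratio of -0.51, and -0.31 on the other. Scn8a had -0.50 and -0.32 on design C, -0.09 on design B and 0.18 on design A. Kcnq3, a subunit of the M current, had -0.42 and -0.22. Several of these genes have more than 1 probe set, so the 22 values are not independent. Whether the HCN, T-type and SK probe sets differ from this list was not tested, since each design has 1 array per training group.

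**Figure D4:**
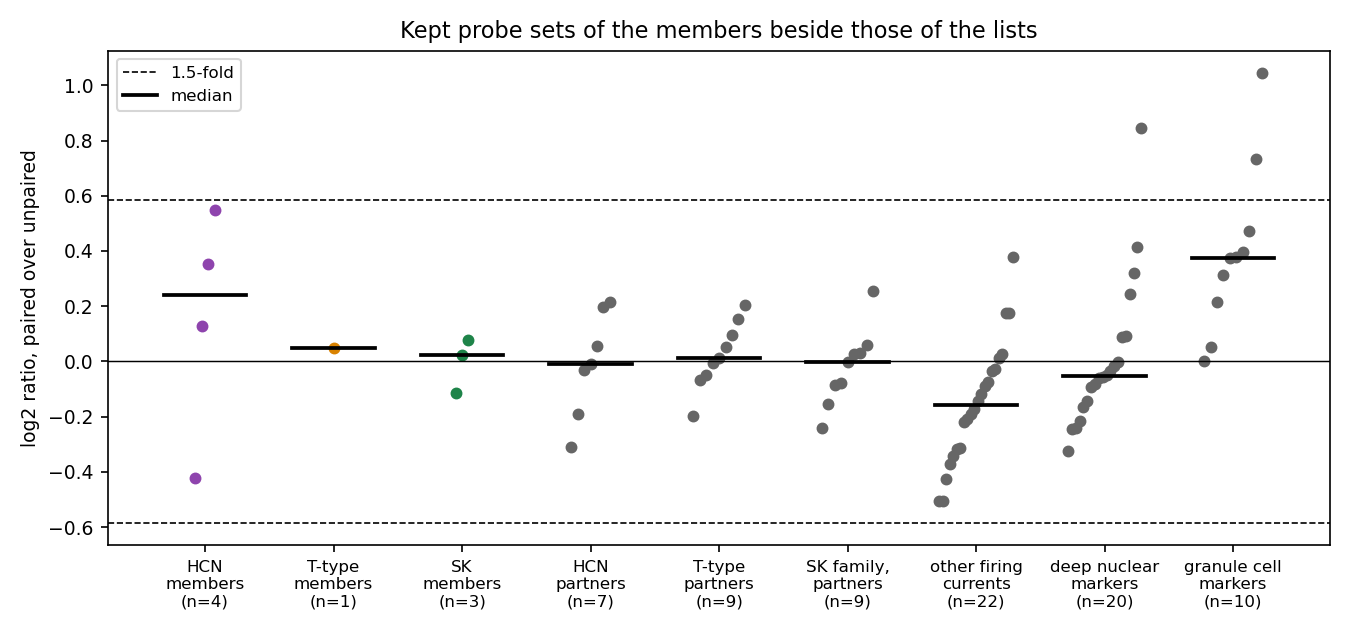
Log2 ratios, paired over unpaired (vertical axis), of the kept probe sets of the HCN, T-type and SK genes, of their partner lists, of other firing currents and of deep nuclear and granule cell markers, 1 point per probe set with the list median as a bar and 1.5-fold as dashed lines. Medians are 0.24, 0.05 and 0.02 for the channel groups, near 0 for the partner lists, -0.16 for other firing currents and 0.38 for granule cell markers.

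The arrays of a design had medians between 3.02 and 4.83 that differed by at most 0.04 between the pools. As deposited, the 5' probe sets of the beta-actin control were higher in the paired pool by 0.29 (A), 0.21 (B) and 0.34 (C). Its 3' probe sets were higher by 0.13, 0.06 and 0.20. For Gapdh the 5' values were 0.01, 0.21 and 0.14, and the 3' values 0.03, 0.02 and 0.14. Whether RNA quality or labelling bears on the channel ratios was not tested. Markers of deep nuclear projection neurons were measured, with 20 kept probe sets from 9 of 11 genes at rank percentiles of 54.4 to 100.0 in the paired pool and 49.6 to 100.0 in the unpaired pool, Tbr1 lying under the filter. Of these, 6 were higher and 14 lower in the paired pool, with a median log2 ratio of -0.05, and 1 was past 1.5-fold, a probe set of Slc17a6 at 0.85, beside -0.08 and 0.00 on its others. Granule cell markers had 10 kept probe sets from 6 of 9 genes, all 10 higher in the paired pool, with a median of 0.38 and 2 past 1.5-fold, both of Gabra6, at 0.73 and 1.04. They ranked at percentiles of 54.9 to 92.6 in the paired pool and 47.0 to 89.7 in the unpaired pool, with Cbln3 and Neurod1 under the filter. Among them Slc17a7 had log2 ratios of 0.21, 0.05 and 0.00, and the last was above 0 only after scaling. Purkinje cell markers were higher in 7 of 10, with 1 past 1.5-fold, a probe set of Car8 at 0.61, beside 0.24 on its other. The lower ones were Gad1 at -0.41, Slc1a6 at -0.15 and a probe set of Pcp2 at -0.08, beside 0.09 on its other. Oligodendrocyte markers were lower in 12 of 15 kept probe sets. Markers of molecular layer interneurons were higher in 3 of 3 kept probe sets, which came from only 2 of 6 genes, Nxph1 and Sst. Lypd6, Pax2, Sorcs3 and Tfap2b lay under the filter. Markers of astrocytes and Bergmann glia were higher in 8 of 13 kept probe sets, of microglia in 6 of 7 and of endothelial and mural cells in 2 of 5. The part of these marker differences in the channel values was not tested. In pooled tissue, fewer cells of a type and less RNA per cell cannot be told apart.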

How the data were processed

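The deposited values are 1 signal per probe set and array, in 3 tables of 2 columns each. They were read as log2 signals from their range, 1.40 to 12.53 without controls. How the authors summarized, background-corrected and normalized these log2 values before they were deposited is not given in the sources used here. After 198 control probe sets were set aside, 29131 of 36701 had 1 gene symbol in the platform annotation, 724 several and 6846 none. Current symbols came from RefSeq (GRCm38.p6) by gene identifier, which matched 29044. Probe set targets were not checked against sequence.

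Per design, a constant was added to the paired array to bring the median log2 ratio of the brighter probe sets (mean signal not under the median) to 0. Signals under the 25th percentile were set to it. The same brighter probe sets were kept: 6211 (A), 6206 (B) and 5934 (C). No test was made, for want of replicate arrays, and differences past 1.5-fold were counted. The number of arrays limits the precision. The members, lists and alternatives were chosen with earlier results of these data known. All members' probe sets are named, and from each partner and firing list the 3 kept probe sets with the largest absolute log2 ratio and any past 1.5-fold. Other probe sets of those genes, Pex5l, Calm2 and Cacna1a were named after their values were seen. So were the marker genes, the control transcripts and the other genes with same-entry pairs. Steps were tested on simulated data. Computation used Python 3.11.15, pandas 2.3.3 and statsmodels 0.14.6 (loess span 0.3).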

Additional observations from a re-analysis of the deposited data

How the results depend on the processing

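No paired analysis was possible because each training group had 1 array per design, so no replicates could be left out or matched. Under no scaling, quantile scaling and loess scaling, the 30 values of the 10 channel probe sets above the floor moved by at most 0.074 on the log2 scale, and 4 changed sign, all of Cacna1g and Cacna1h under quantile and loess scaling. The other floors did not move the 8 kept probe sets, all of which lie above them, and without a floor the Kcnn2 probe set held there had a log2 ratio of 0.12. No member passed 1.5-fold under any alternative tried, and the members' median log2 ratio lay between 0.01 (design A alone) and 0.08. With signal at or above the 75th percentile, 5 member probe sets were kept and 3 were higher in the paired pool. Leaving out lettered probe sets, or taking the brightest per gene, left 5 probe sets, with 4 higher. Design A alone had 4 with 2 higher, design B 1 with 1 higher, and design C 3 with 3 higher. Fewer probe sets enter these counts, and the share higher in the paired pool also varied, from 2 of 4 on design A to 3 of 3 on design C. The mean log2 ratio of Hcn2 was -0.04 with signal at or above the 75th percentile or on design A alone, 0.35 on its brightest probe set and 0.55 without lettered probe sets or on design C alone. Among 127 medians of partner, firing and marker lists, in alternatives added after seeing the data, 5 moved by more than the SD of 0.19 and 8 changed sign.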
